A study of Homo sapiens with 6 samples.

Results

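The BCL2 family was followed in 10 genes: BCL2, BCL2A1, BCL2L1, MCL1, BCL2L11, BBC3, PMAIP1, BAX, BAK1 and BID. They were taken by symbol from the 58870 genes of the count table, where each had 1 row, and all 10 were expressed well enough to receive an adjusted p. RNA sequencing had been done on WM164, an established human melanoma cell line, transduced with lentivirus to overexpress GFP (3 control libraries) or T-MGM (3 libraries). T-MGM is a tethered dimer in which MAFG, a small MAF transcription factor, follows the melanocytic isoform of MITF on a single chain with a flexible linker between them. Per the study's methods the dimer sat behind an EF1α promoter in a vector with blasticidin resistance. Nothing in the labels says whether replicates were separate transductions or cultures, so the p-values measure only the spread between these libraries, which may be technical.

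Proteins of the BCL2 family decide whether the outer mitochondrial membrane is opened, the step that releases cytochrome c and commits a cell to intrinsic apoptosis. Pro-survival members (BCL2, BCL-XL encoded by BCL2L1, MCL1 and BFL-1 encoded by BCL2A1) hold back the pore-forming members BAX and BAK, and BH3-only members (BIM encoded by BCL2L11, PUMA encoded by BBC3, NOXA encoded by PMAIP1, and BID) bind the pro-survival proteins or activate the pore-forming ones. In the melanocyte lineage BCL2A1 and BCL2 are known targets of MITF, and NOXA binds MCL1 and BFL-1 in preference to the other pro-survival proteins.

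The upstream bases of BCL2A1 and BAX are shown because BCL2A1 is a known MITF target and the BAX window repeats a motif that MITF binds. MITF binds CATGTG, the core of the M-box, and the palindrome CACGTG, and MAF proteins bind elements built on TGACTCA and TGCTGA. These letters were searched on both strands in the 250 bases upstream of the RefSeq transcription starts (GRCh38.p14), where 9 of the 10 members had an entry. BCL2A1 holds a single CATGTG whose first base lies 25 bases upstream of its start, a motif found in 9.42% of all 35116 promoters searched. Its 250 upstream bases, chr15:79971197-79971446 on the minus strand, are printed 5′ to 3′ with CATGTG in capitals. BAX holds 4 copies of CACGTG, at 138, 93, 45 and 14 bases upstream of the RefSeq start. At least 1 copy was found in 6.34% of promoters. In BAX the last 2 copies lie past the start of the first annotated exon. The 190 bases ahead of its first annotated exon, chr19:48954625-48954814 on the plus strand, are printed with the first 2 copies in capitals.
BCL2A1: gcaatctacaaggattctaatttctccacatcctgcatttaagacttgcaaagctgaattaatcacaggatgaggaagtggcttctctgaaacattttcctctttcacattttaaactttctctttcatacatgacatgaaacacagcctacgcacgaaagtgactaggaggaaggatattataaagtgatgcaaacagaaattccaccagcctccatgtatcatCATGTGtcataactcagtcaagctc
BAX: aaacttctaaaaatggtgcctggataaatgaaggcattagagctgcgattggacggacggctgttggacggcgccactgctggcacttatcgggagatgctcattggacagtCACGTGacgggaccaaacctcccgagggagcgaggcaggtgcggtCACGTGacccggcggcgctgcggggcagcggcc
BBC3 carried 1 copy of the CACGTG palindrome and 1 of TGACTCA (4.2% of promoters). BID has 5 annotated starts, and at 3 of them the window held the M-box core, the palindrome or TGCTGA (14% of promoters). None of the 4 motifs was found in these windows of BCL2, BCL2L1, BCL2L11, PMAIP1 or BAK1. The BCL2 window (chr18:63319770-63320019) began inside an annotated exon, so bases ahead of the annotated gene were not searched. A BCL2L1 window also began inside an exon. A match describes letters only, and binding was not measured in these files.

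Libraries held 35057239 to 38738065 counts in the GFP group and 44577774 to 59250663 in the T-MGM group, and libraries correlated at r = 0.99 to 0.993 within groups and 0.969 to 0.974 between them (across genes). The genes of the construct did not check the labels. MAFG counted 2458.1 ± 70.3 (SD, n = 3) normalized reads in the GFP libraries and 2357.9 ± 34.9 (n = 3) in those labelled T-MGM (log2 fold change -0.06, DESeq2 adjusted p = 0.236), and MITF was at 19161.2 ± 46.9 and 20269.5 ± 165 (0.08, adjusted p = 4.8e-07), with the order turned in TPM (138 ± 1.56 and 133 ± 2.73). Group names are therefore those of the labels, and each direction below is the libraries labelled T-MGM over GFP. All 6 melanocyte markers examined were expressed, and all 6 had a DESeq2 adjusted p of 0.05 or less, as did 38.4% of all genes tested. DCT, a pigment enzyme, fell by 82.1%, MLANA by 37.4% and TYR by 21.3% in the libraries labelled T-MGM (log2 fold changes -2.49, -0.68 and -0.35), while MITF, SOX10 and PMEL had fold changes of 1.06, 1.08 and 1.04. In TPM the means of SOX10 (416 in GFP and 403 in T-MGM) and PMEL (252 and 237) were lower in T-MGM, as for MITF. Whether these shifts in melanocyte genes have a part in the members' values was not tested. Of 7 markers of leukocytes, keratinocytes and endothelium, the 6 other than CD68 summed to 15.2 to 20.6 normalized reads per GFP library and 16.2 to 31.0 per T-MGM library, with PTPRC at 0 in all GFP libraries. CD68, which melanoma cells can also express, brought the sum to 748 to 811 against 962 to 1178.5.

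The 10 members moved by small amounts and in both directions. A gene passed where its DESeq2 p, adjusted by Benjamini-Hochberg over all genes tested, was 0.05 or less. Of the 10 members 6 passed, with PMAIP1, BAK1 and BID higher and BCL2, MCL1 and BCL2L11 lower in T-MGM. Across the 19135 genes tested 38.4% passed, 19.2% upwards and 19.2% downwards, so a member passing is a common event in this comparison. None of the 10 exceeded a 2-fold change in DESeq2 or in edgeR (7 had an unadjusted p under 0.05 in each), where 4.63% of genes passed with more than a 2-fold change. For 7 members the 2 groups shared no range of normalized counts, as for 46.8% of genes. The median log2 fold change of the members was 0.04, beside -0.01 for the 12654 genes whose normalized counts averaged 50 or more. In limma fits to the deposited TPM only MCL1 passed among the members, with the median gene at -0.13 to -0.15 on that scale.

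**Figure D1:**
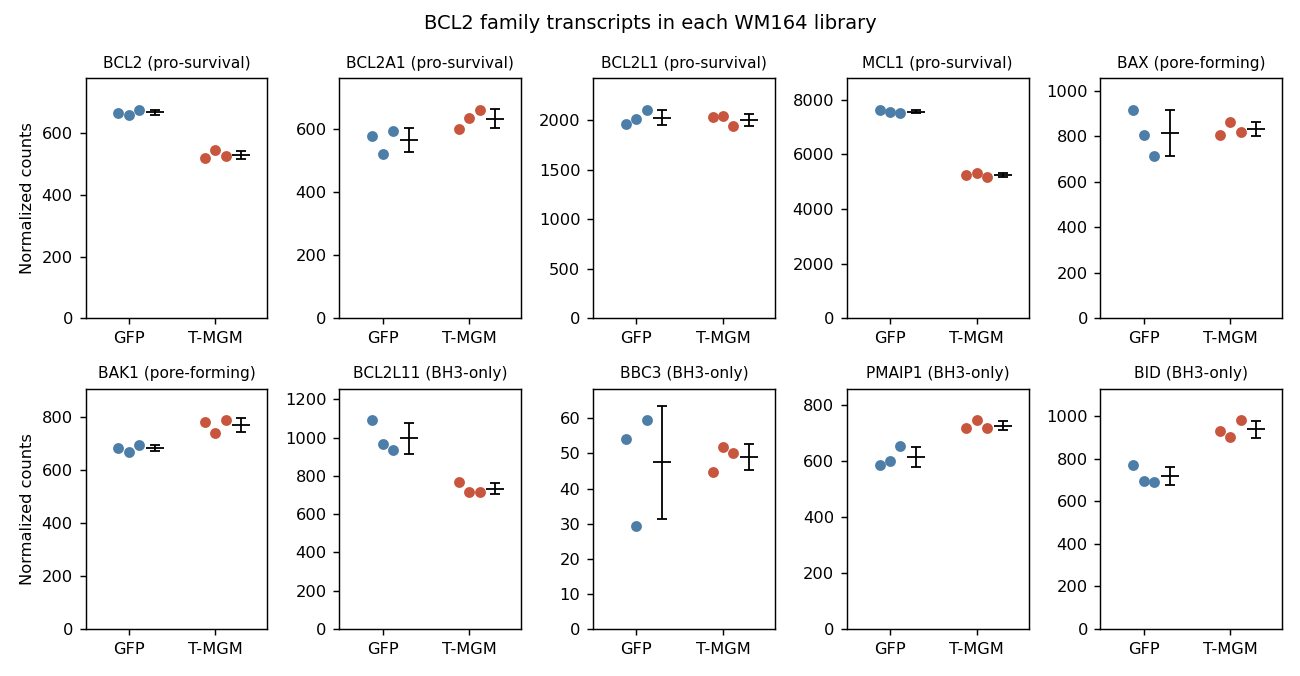
Normalized read counts of the 10 members in each of the 3 GFP and 3 T-MGM libraries, with a panel and a linear axis for each member. Points are libraries, and a line with an error bar gives the mean and SD of each group. MCL1 has the highest counts and BBC3 the lowest by the axis values. The groups separate for 7 members, with BCL2L1, BBC3 and BAX overlapping.

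MCL1, a short-lived protein that shields BAK and is often required for melanoma cell survival, had the smallest adjusted p of the family. GFP libraries held 7627, 7542 and 7502 normalized reads of MCL1, and T-MGM libraries 5248, 5311 and 5177. Every T-MGM library was below every GFP library, and the gap was far wider than the spread inside either group. Means were 7557 ± 63.6 and 5245.5 ± 67.4 (SD, n = 3 each), a fall of 30.6% (fold change 0.694, 95% interval 0.672 to 0.717; DESeq2 adjusted p = 4.97e-106). Among those 12654 genes, 10.2% had a larger absolute log2 fold change. Whether fewer cells held MCL1 transcript or each cell held less cannot be told apart in bulk RNA. MCL1 (ENSG00000143384.13) lies at chr1:150560895-150579738 on the minus strand of GRCh38, where its exons overlap those of ADAMTSL4-AS1 on the same strand and ADAMTSL4 on the other.

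BCL2, the founding member of the family, also fell. The GFP libraries held 667, 661 and 676 normalized reads, those of T-MGM 519, 545 and 526. The lowest GFP library lay above the highest T-MGM library. Group means were 668 ± 7.92 and 530 ± 13.6 (SD, n = 3 each), a decrease of 20.6% (log2 fold change -0.33, SE 0.08; DESeq2 adjusted p = 7.32e-05). BCL2 (ENSG00000171791.13) spans chr18:63123346-63320128 on the minus strand.

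BCL2A1, whose promoter letters are printed above, did not pass. The GFP libraries held 577, 521 and 592 normalized reads and the T-MGM libraries 599, 633 and 659.7. All 3 T-MGM values were above all 3 GFP values, but the closest pair, GFP 3 and T-MGM 1, differed by less than the SD of either group. With means of 563 ± 37.4 and 631 ± 30.2 (SD, n = 3 each), the fold change was 1.12 with a 95% interval of 1.00 to 1.25 and a DESeq2 adjusted p of 0.1. Once GC content and transcript length were corrected for, the log2 fold change of BCL2A1 was 0.22 and the adjusted p 0.0249. Its deposited TPM was 19.2, 17.4 and 19.9 in GFP against 18.1, 19.4 and 19.6 in T-MGM, and on that scale the groups overlapped. BCL2A1 (ENSG00000140379.8) occupies chr15:79960892-79971196 on the minus strand and overlaps no exon of another gene.

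BCL2L1, which encodes BCL-XL and, by splicing, the pro-apoptotic BCL-XS, was nearly level. It counted 1967, 2011 and 2109 normalized reads in GFP and 2031, 2049 and 1941 in T-MGM, and the groups overlapped. The fold change of 0.988 had a 95% interval of 0.932 to 1.05 (DESeq2 adjusted p = 0.819). With the GC and length correction BCL2L1 came to -0.12 on the log2 scale (adjusted p = 0.0155). Counts per gene do not separate its splice forms. BCL2L1 (ENSG00000171552.13, chr20:31664452-31723989, minus strand) overlaps exons of ABALON on the opposite strand.

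Among the pore-forming members, BAK1 passed narrowly and BAX did not. BAK1, the gene of the pore former that resides on mitochondria, held 685, 670.2 and 693 normalized reads in GFP and 784, 741 and 788 in T-MGM. The groups were apart, with a fold change of 1.13 (95% interval 1.03 to 1.24; DESeq2 adjusted p = 0.0345). That call was lost when any single library other than T-MGM 2 was left out (adjusted p from 0.0364 to 0.137 over the 6 fits) and when total counts set the scale (log2 fold change 0.12, adjusted p = 0.172) or GC content and length were corrected for (0.05, adjusted p = 0.651). BAX, the gene of the pore former that moves from the cytosol to mitochondria, counted 917, 808 and 715 in GFP against 808, 865 and 819 in T-MGM. The GFP libraries enclosed all the T-MGM values of BAX, and its fold change of 1.02 had a 95% interval of 0.919 to 1.14 (DESeq2 adjusted p = 0.817). BAK1 (ENSG00000030110.13) lies at chr6:33572547-33580293 (minus strand, with exons of GGNBP1 opposite) and BAX (ENSG00000087088.20) at chr19:48954815-48961798 (plus strand).

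The BH3-only members did not move as a group. BID, which is cut by caspase-8 to link death receptors to mitochondria, rose. It counted 769, 695 and 691 normalized reads in GFP and 932, 902 and 980.0 in T-MGM. Each T-MGM library exceeded each GFP library, and means of 718 ± 43.7 and 938 ± 39.6 (SD, n = 3 each) gave an increase of 30.8% (log2 fold change 0.39, SE 0.07; DESeq2 adjusted p = 1.61e-07). In TPM the groups overlapped, with 19.51, 16.64 and 20.96 in GFP against 20.58, 22.3 and 24.96 in T-MGM. BID did not pass in the limma fits to TPM (adjusted p from 0.0919 to 0.245). BID (ENSG00000015475.18) is at chr22:17734138-17774770 on the minus strand.

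PMAIP1, the gene of NOXA, rose as well. Its libraries held 586, 602 and 656 normalized reads in GFP and 719.8, 746 and 718 in T-MGM, without overlap. The fold change was 1.18 (95% interval 1.07 to 1.31; DESeq2 adjusted p = 0.00412). Its log2 fold change of 0.24 became 0.39 with the GC and length correction, and 0.079 to 0.088 in the limma fits to TPM, where it did not pass (adjusted p from 0.398 to 0.568). PMAIP1 (ENSG00000141682.11) lies on the plus strand at chr18:59899996-59904305.

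BCL2L11, the gene of the potent activator BIM, fell. It counted 1090, 966 and 934 normalized reads in GFP and 766, 717 and 718 in T-MGM. All T-MGM values were lower than all GFP values, with means of 734 ± 28.2 and 997 ± 82.3 (SD, n = 3 each) and a decrease of 26.4% (log2 fold change -0.44, SE 0.07; DESeq2 adjusted p = 2.82e-09). In TPM, GFP ran at 6.74, 6.75 and 6.63 and T-MGM at 6.42, 5.82 and 3.59, so T-MGM replicate 3 stood apart in TPM and not in normalized counts. BCL2L11 (ENSG00000153094.23, chr2:111119378-111168444, plus strand) overlaps exons of MIR4435-2HG on the other strand.

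BBC3, the gene of PUMA, was the least abundant member. It had raw counts of 45, 27 and 52 in GFP against 49, 53 and 68 in T-MGM, or 54.0, 29.2 and 59.4 against 44.7, 51.7 and 50.2 normalized reads. GFP 2 was the lowest library, and the GFP range enclosed the T-MGM values. The interval of its fold change ran from 0.678 to 1.57 (DESeq2 adjusted p = 0.937), which is wide enough to hold the fold changes of all other members. BBC3 (ENSG00000105327.17) lies at chr19:47220822-47232766 on the minus strand and overlaps the microRNA genes MIR3191 and MIR3190.

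Levels between genes were compared per length, in the deposited TPM. In the GFP libraries MCL1 stood first with 42.0 to 42.3 TPM, clear of BAX with 22.5 to 30.4, which was in turn clear of BCL2L1 with 19.8 to 21.1. BID (16.6 to 21.0) and BCL2A1 (17.4 to 19.9) overlapped BCL2L1. In the T-MGM libraries MCL1 (25.7 to 27.3) reached down to BAX (22.1 to 25.7), and BID (20.6 to 25) lay above BCL2A1 (18.1 to 19.6) and overlapped BCL2L1 (18.0 to 20.8). PMAIP1, BAK1 and BCL2L11 formed a lower tier in both groups. They overlapped in GFP (6.57 to 7.52, 6.61 to 6.82 and 6.63 to 6.75) and followed in that order without overlap in T-MGM (7.21 to 7.93, 6.63 to 6.96 and 3.59 to 6.42). BCL2 (1.48 to 2.76 over all 6 libraries) and BBC3 (0.51 to 0.92) came last, each clear of the next gene in the order. BCL2L2, a pro-survival gene outside the 10 members, stood at 11.5 ± 1.02 TPM in GFP and 10.8 ± 0.854 in T-MGM (SD, n = 3 each). BCL2A1 and BCL2L1 transcripts lay in the same range. BCL2 transcript made up a small share of the pool of the 4 pro-survival members, which leaves out BCL2L2.

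The make-up of that pool differed between groups. MCL1 accounted for 50.6%, 51.2% and 49.2% of the summed TPM of the 4 pro-survival members in GFP and for 42.1%, 38.1% and 39.2% in T-MGM. BCL2A1 held 23.1%, 21.2% and 23.1% in GFP against 27.8%, 28.4% and 29.9% in T-MGM. BCL2L1 likewise took 24.5% ± 0.621 (SD, n = 3) and 28.9% ± 1.46 (n = 3), while BCL2 stayed at 2.74% ± 0.406 and 2.6% ± 0.344 with overlap. In TPM itself BCL2A1 was at 18.8 ± 1.26 in GFP and 19 ± 0.829 in T-MGM, and BCL2L1 at 20.5 ± 0.62 and 19.1 ± 1.48 (SD, n = 3 each), with overlap for both. The summed TPM was 83.2, 82.1 and 86 in GFP against 64.8, 68.1 and 65.4 in T-MGM. On the TPM scale the median gene itself had a log2 fold change of -0.13 to -0.15, and the part of that shift in these sums was not tested.

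**Figure D2:**
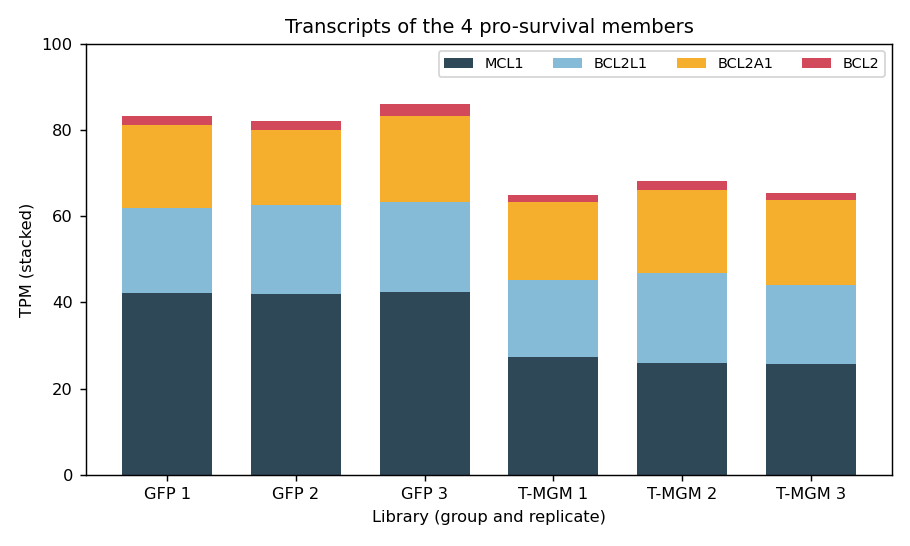
Deposited TPM of the 4 pro-survival members stacked for each of the 6 libraries (bars start at 0). The MCL1 segment shrinks from about 42.2 to 26.3 TPM between group means, while the BCL2A1 and BCL2L1 segments keep nearly the same height.

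Ratios within a library were formed after the values had been seen and are given without a test. The ratio of MCL1 to PMAIP1 transcript in TPM was 6.41, 5.98 and 5.63 in GFP against 3.74, 3.27 and 3.56 in T-MGM. For MCL1 to BCL2A1 it was 2.25 ± 0.146 (SD, n = 3) and 1.39 ± 0.11 (n = 3). MCL1 over BCL2L11 gave 6.25, 6.22 and 6.38 in GFP against 4.26, 4.46 and 7.15 in T-MGM, so T-MGM replicate 3 lay above the GFP values here. The 4 pro-survival members summed to 2.47, 2.65 and 2.39 times the TPM of the 4 BH3-only members in GFP and to 1.86, 1.85 and 1.79 times in T-MGM. The BH3-only sum itself was 33.5 ± 2.54 and 36.1 ± 1.01 TPM, and BAX plus BAK1 summed to 33.3 ± 3.89 and 30.3 ± 1.76 TPM. These sums leave out related genes outside the 10 members, such as the BH3-only gene BAD. BAD stood at 8.01 ± 0.515 TPM in GFP and 8.92 ± 1.13 in T-MGM.

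Each member was set beside the other genes within 10 Mb that averaged 50 or more normalized reads. The median log2 fold changes of these neighbours ran from -0.31 (PMAIP1) to 0.12 (BAK1). Shifts along whole chromosomes were not measured. BCL2 at -0.33 was close to the median of its 30 neighbours, -0.28 (middle 50% from -0.34 to -0.08), and 8 of them had a lower fold change. PMAIP1 lies 3.22 Mb from BCL2 on chromosome 18, in the same low stretch, where its 35 neighbours had a median of -0.31 and 34 of them lay below its 0.24. MCL1 on chromosome 1 had 203 neighbours with a median of -0.18 (middle 50% from -0.43 to 0.06), of which 29 lay lower. BCL2L11 had 60 neighbours at a median of -0.23, 9 of them lower. BID exceeded 95 of 105 neighbours (median 0.11) and BCL2A1 96 of 134 (median 0.04). BAK1 lay 0.06 above the median of its 260 neighbours. With the GC and length correction BAK1 came to 0.05 beside a neighbour median of 0.06 and BCL2 to -0.29 beside -0.18, and PMAIP1 (0.39 beside -0.20), BID (0.38 beside 0.04), MCL1 (-0.48 beside -0.21) and BCL2L11 (-0.41 beside -0.16) stayed apart from their medians in the same direction. The part of these regional differences in the members' fold changes was not tested.

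**Figure D3:**
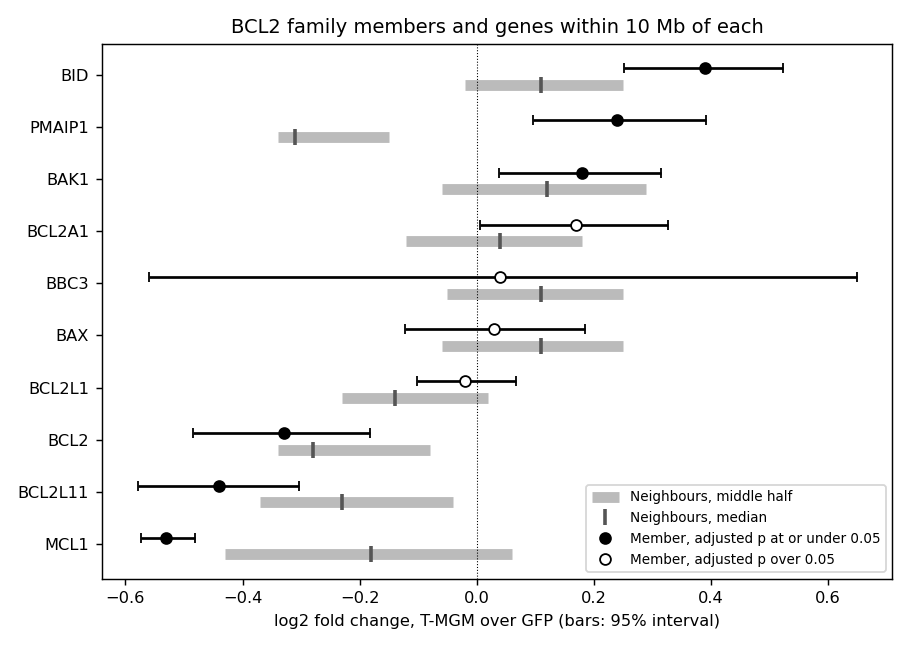
Log2 fold change (T-MGM over GFP) of each member with its 95% interval, beside the median and middle 50% of other genes within 10 Mb. PMAIP1, BID, MCL1 and BCL2L11 lie outside the middle 50% of their neighbours, and BCL2 lies inside it.

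Around the 10 members, 69 further genes of the cell death pathway were counted, of which 65 received an adjusted p. Among the 65, 16 rose, 14 fell and 35 did not pass, so that 46.2% passed beside 38.4% of all genes. The 38.4% covers tested genes at every count level and was not matched to the expression of the members or lists. The split into higher and lower genes depended on the scale. It was 13 higher and 21 lower under total-count scaling, and 8 higher and 19 lower in the limma fits to filtered TPM.

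Of 13 other genes related to BCL2, 10 received an adjusted p. Among them 3 rose, none fell and 7 did not pass (median log2 fold change 0.13). Thus 30% passed beside 38.4% of all genes. BNIP3, an atypical BH3 protein that marks mitochondria for autophagy and is induced by hypoxia, counted 4733, 4901 and 4730 normalized reads in GFP and 8629, 9004 and 9003 in T-MGM. That was a 1.85-fold increase (95% interval 1.79 to 1.92; DESeq2 adjusted p = 1.25e-257), larger than that of any of the 10 members. Its close relative BNIP3L rose 1.6-fold (adjusted p = 3.57e-103). BOK, another pore-forming relative, rose 1.28-fold in DESeq2 (adjusted p = 8e-06) and did not pass in TPM.

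Of 11 genes of the apoptosome, the caspases (initiators and executioners) and the apoptotic nuclease, 6 fell, 1 rose and 4 did not pass (median log2 fold change -0.24). In this list 63.6% passed beside 38.4% of all genes. CASP8, which cuts BID, fell from 1895 ± 51.3 to 1422.5 ± 52.8 normalized reads (SD, n = 3 each; log2 fold change -0.42, DESeq2 adjusted p = 3.04e-17), while BID itself rose. CYCS, the gene of cytochrome c, fell by 0.25 on the log2 scale, and DFFA, the inhibitor and chaperone of the apoptotic nuclease, fell by 0.34 (DESeq2 adjusted p = 5.35e-25 and 5.96e-33). These 3 passed in the same direction in 17 of 18 alternative analyses, as did BNIP3 and BNIP3L, the exception being a test against a 2-fold change. Shrinkage of fold changes, among the 17, reuses the p-values of the main analysis.

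Among 8 inhibitors of apoptosis and their antagonists, 2 rose, 1 fell and 5 did not pass, so that 37.5% passed beside 38.4% of all genes. HTRA2, a mitochondrial protease that removes these inhibitors, rose by 0.34 and BIRC5 (survivin) by 0.22 on the log2 scale, and XIAP, the direct caspase inhibitor, fell by 0.30 (DESeq2 adjusted p = 6.7e-13, 5.57e-18 and 4.09e-12). BIRC7, a melanoma inhibitor of apoptosis regulated by MITF, had a log2 fold change of 0.06 (adjusted p = 0.489). BIRC5 and XIAP did not pass in TPM. Of 8 genes of death receptors, their adaptors and the inhibitor CFLAR, 7 received an adjusted p. Of these 3 rose, none fell and 4 did not pass, so that 42.9% passed beside 38.4% of all genes. FAS was the only gene of all these lists to pass with more than a 2-fold change. It had raw counts of 28, 17 and 28 in GFP against 83, 73 and 141 in T-MGM, a 3.02-fold rise (95% interval 1.99 to 4.57; DESeq2 adjusted p = 1.14e-06) from a low level, and did not pass in TPM. TNFRSF1A, the TNF receptor, and CFLAR, the caspase-8 inhibitor FLIP, rose by 0.24 and 0.20 on the log2 scale, neither passing in TPM and the latter losing its call without T-MGM replicate 1 and under total-count scaling.

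Of 15 regulators and binding partners 5 rose, 2 fell and 8 did not pass (median log2 fold change 0.02). In this list 46.7% passed beside 38.4% of all genes. FOXO3, an activator of BCL2L11 and BBC3, counted 1917, 1900.0 and 1973 normalized reads in GFP libraries and 2609, 2647 and 2451 in T-MGM libraries. That was a 1.33-fold increase (95% interval 1.26 to 1.41; DESeq2 adjusted p = 3.28e-21), while BCL2L11 fell. ATF4, a stress factor that can activate PMAIP1, rose 1.19-fold (DESeq2 adjusted p = 3.3e-43). The 2 that fell were DDIT3, also a transcription factor, and DYNLL2, a binding partner. Their log2 fold changes were -0.47 and -0.12 (DESeq2 adjusted p = 1.89e-07 and 8.38e-05). FOXO3 and ATF4 passed in the same direction in 17 of 18 alternative analyses, all but the test against a 2-fold change. Among the 17, shrinkage again reuses the main p-values.

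**Figure D4:**
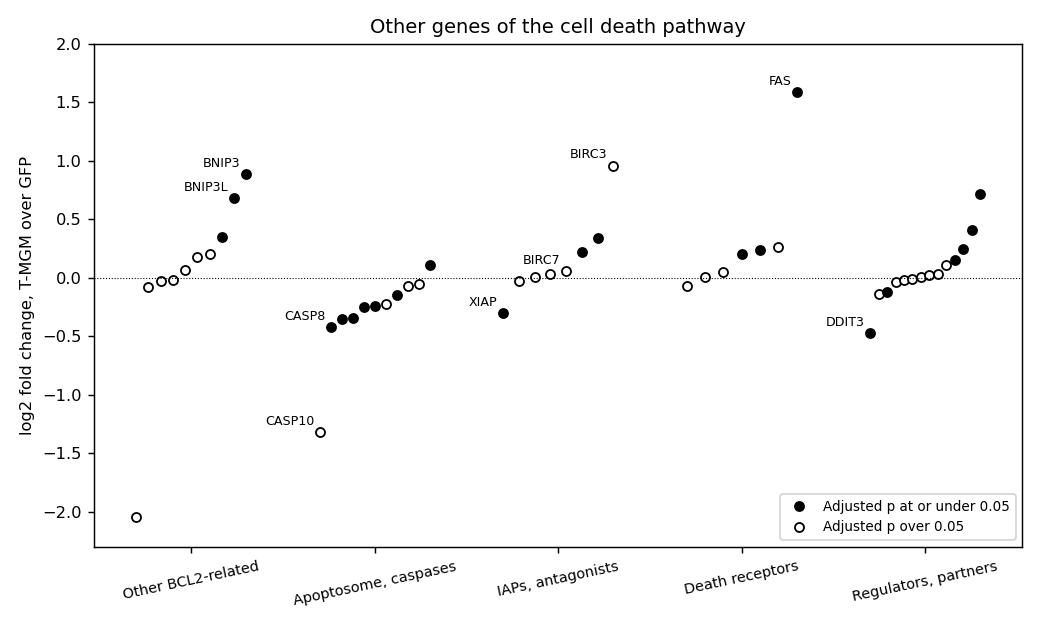
Log2 fold change (T-MGM over GFP) of other genes of the cell death pathway in 5 lists, with filled points for genes at an adjusted p at or under 0.05 and open points for the rest. FAS at 1.59 and BNIP3 at 0.89 lie highest among the filled points, and the open points farthest from 0 are genes of low count.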

How the data were processed

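RNA sequencing was analysed in 3 GFP and 3 T-MGM libraries of WM164, grouped by sample titles. The authors trimmed reads (cutadapt 1.8.1), aligned them to GRCh38 (STAR 2.7.7a) and deposited whole-number counts per gene from featureCounts. They also deposited TPM (RSEM 1.3.0). The annotation release was not given in the sources used here, and labels and methods name library kits that differ in strand, so counts of overlapping genes are uncertain.

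Counts were tested over the whole table with DESeq2 1.42.0 in R 4.3.3 (group as the only term, median-of-ratios size factors, 2-sided Wald test, local dispersion trend, independent filtering at 0.05, no shrinkage), the tool the study's methods name. A gene passed where its p, adjusted by Benjamini-Hochberg over all genes tested, was 0.05 or less. Normalized reads are counts divided by size factors, and intervals (95%) use the DESeq2 SE. A floor of 3 counts equalled 0.0506 to 0.0856 CPM per library and covers counting error only.

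Positions are from GENCODE 44 (99.4% of identifiers matched), upstream bases from RefSeq. All 10 members are named, and of 6 other lists every gene over 2-fold and up to 3 with the smallest adjusted p. The counts over all 6 lists include 1 list and 1 further gene that are not reported here. BIRC7, BCL2L2, BAD, DDIT3 and DYNLL2 were named after their values were seen. The members and lists were chosen with earlier results of these data known. Alternatives were edgeR 4.0.16, other scaling and filters, the replicate number as a block, libraries left out, shrinkage, a test against a log2 fold change of 1, a GC and length correction, and limma 3.58.1 on log2 TPM plus 1 or 0.1. The DESeq2, edgeR and limma steps were checked on simulated counts with known changes.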

Additional observations from a re-analysis of the deposited data

How the results depend on the processing

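Of 180 fold changes (10 members under 18 alternatives each), 133 kept their direction and side of the threshold, 31 kept direction and lost the call, 2 gained it and 14 changed sign. Shrinkage, counted among the 18, keeps the p-values of the main analysis, so it could not move a member across the threshold. The sign changes were all in members that had not passed. BBC3 came to -0.0087 with total counts, -0.021, -0.027 and -0.021 in the 3 limma fits and -0.16 with the GC and length correction, with -0.21 to 0.24 when libraries were left out. BAX came to -0.022, to -0.16, -0.17 and -0.16, and to -0.12 under the same settings, with -0.052 to 0.12 when libraries were left out, and BCL2L1 ranged from -0.039 to 0.013 when they were. Of 31 lost calls 14 were BAK1. The members passing numbered 6 in DESeq2 and edgeR and 5 to 6 with a library left out. With the GC and length correction they numbered 7, with BCL2A1 and BCL2L1 gained and BAK1 lost. Only 1 (MCL1) passed in each limma fit and 0 in a test against a 2-fold change, where 0 had an unadjusted p under 0.05. That test also passed 0 of the other pathway genes (30 in the main analysis, 25 to 32 with a library left out), with 0 at an unadjusted p under 0.05. Genes past 2-fold numbered 885 (624 higher, 261 lower), and 205 in that test, 207 with shrinkage, and 133 (70 higher, 63 lower), 369 (204 and 165) and 126 (66 and 60) in limma. The cause of these shifts was not tested.

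Replicate numbers gave no pairing, since deviations of same-numbered libraries correlated at -0.00234, -0.0404 and 0.0426. With the number as a block 735 genes, 5 members (without BAK1) and 25 other pathway genes passed. BBC3 and FAS, with few reads, are limited by depth. Groups of 3 libraries were too small for a search for outlying libraries.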
